A study of Mus musculus with 12 samples.

Results

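The ATF4-CHOP axis is the branch of the integrated stress response that runs from the kinase PERK through the transcription factors ATF4 and CHOP. It was examined here through 10 genes taken by symbol from the count files. The rule itself uses no measured value, but the genes were chosen with earlier results of these data known. They are Atf4, Ddit3 (which encodes CHOP), Atf3, Atf5, Trib3, Nupr1, Chac1, Sesn2, Ddit4 and Ppp1r15a. All 10 were among the 23337 genes counted in each file, and all 10 passed the filter on low counts that left 12038 genes for testing.

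The RNA-seq libraries came from regulatory T cells (Treg), the Foxp3-expressing T cells that restrain immune responses, of C57BL/6 mice 8 weeks old, in 4 groups of 3 libraries, 12 in all. Induced Treg (iTreg) were CD4 T cells from spleen and lymph nodes that had spent 5 days in culture with IL-2 and TGF-beta before those positive for GFP were taken. Natural Treg (nTreg) were CD4+GFP+ cells sorted from the same organs. In each kind, the KO label stands for Hrd1 flox/flox with FoxP3-cre-GFP and the WT label for Hrd1 +/flox with FoxP3-cre-GFP. Both labels therefore carry the Cre, which is driven in cells that express Foxp3, and the WT-labelled cells carry a floxed allele as well. Hrd1, whose gene is Syvn1 in the files, is an E3 ligase in the membrane of the endoplasmic reticulum (ER), where it ubiquitinates misfolded proteins so that they are degraded. The comparison asks what goes with floxing both alleles of this ligase in Treg. The labels do not say whether the replicates are separate mice, so a p-value here speaks of the spread among libraries, which may be technical.

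When unfolded proteins gather in the ER, PERK phosphorylates the initiation factor eIF2 on its alpha subunit, which slows most protein synthesis but lets Atf4 mRNA be translated more. Other kinases converge on the same site during amino acid shortage, haem shortage or viral infection. ATF4 then turns on genes for amino acid supply and further factors, among them CHOP, while GADD34, the product of Ppp1r15a, brings a phosphatase back to eIF2. Because ATF4 protein is set largely by translation, its mRNA level is not a measure of its activity, and only mRNA was measured here.

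The ATF4 binding letters searched were TGATGNAAN on both strands, the core of the C/EBP-ATF response element, here called CARE. They were searched in the 250 bases before each RefSeq start site on GRCm38.p6. Of the 10 members, Atf3, Nupr1 and Chac1 held a match, that is 3 of 10, against 3.893% of 27025 genes with a RefSeq window. The stretches around these matches are shown because these 3 genes include the 2 members without a read in WT-labelled nTreg. Each is written 5′ to 3′ on the strand of the gene, with the match in capitals.
Atf3, chr1:191183426-191183454, minus strand: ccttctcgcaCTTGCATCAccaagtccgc
Nupr1, chr7:126625563-126625591, minus strand: aaagggccagATTGCATCAgacagggctt
Chac1, chr2:119351038-119351066, plus strand: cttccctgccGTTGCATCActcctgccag
All 3 matches are on the strand opposite to the gene and are the same after their first letter. The matches lay 111 to 103 bases before the start in Atf3 and Nupr1 and 194 to 186 bases before it in Chac1. The stretch of Nupr1 also falls in an exon of a longer GENCODE transcript. The palindrome TGACGTCA, the full site for ATF and CREB proteins, was found in 1 of 10 members, Ppp1r15a, 12 to 5 bases before its start, against 1.769% of genes.
Ppp1r15a, chr7:45526269-45526290, minus strand: gcctctccggTGACGTCAgcac
The ER stress element ERSE, read by ATF6 with NF-Y, was searched by its full letters on both strands. It was in 0 of 10 members and in 0.13% of genes. The search allowed no mismatch, so an element that differs by a letter is not counted. The Ddit3 window holds such a stretch, cgtgccgctttctgattgg, with the same spacing. The count of 0 therefore covers exact matches alone. The bases of the Chac1 window up to its annotated exon, chr2:119350992-119351228 on the plus strand, are shown whole because Chac1, a known ATF4 target, had reads in every group but WT-labelled nTreg.
Chac1 window: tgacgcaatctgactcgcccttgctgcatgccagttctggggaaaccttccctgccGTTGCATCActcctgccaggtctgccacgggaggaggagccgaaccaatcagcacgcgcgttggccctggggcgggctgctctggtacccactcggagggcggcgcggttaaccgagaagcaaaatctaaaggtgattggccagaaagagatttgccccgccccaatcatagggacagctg
A match of letters describes the sequence and says nothing of binding in these cells.

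Syvn1 itself did not fall with the KO label. It was at 54.6, 73.1 and 63.1 CPM (a gene's counts scaled to the library's TMM-adjusted total) in KO-labelled iTreg and at 61.6, 72.2 and 101 CPM in WT-labelled iTreg, a log2 fold change of -0.30 (edgeR adjusted p = 0.75). In KO-labelled nTreg it was at 146, 137 and 129.7 CPM, against 73.7, 87.2 and 75.5 CPM in WT-labelled nTreg, a log2 fold change of 0.80 (SE 0.17, edgeR adjusted p = 0.023). The adjusted p was 0.056 to 0.12 when 1 nTreg library, whichever of the 6, was dropped, 0.30 without the libraries with Xist described next and 0.17 without both nTreg libraries numbered 2, while the call held with the replicate number as a block (0.0041). Which exons are floxed is not given in the sources used here, so a count over the gene cannot check the deletion, and the groups are called by their labels. Library totals ran from 6763458 to 15462894 counts. Summed Treg markers (Foxp3, Il2ra, Ctla4, Ikzf2, Cd4 and Cd3e) lay between 3797 and 5087 CPM in every library. That sum covers opposite shifts between the kinds, with 1 marker higher and 5 lower in iTreg at an edgeR adjusted p under 0.05. Il2ra was higher, by 1.36 on the log2 scale with the KO label and 1.91 with the WT label. Ikzf2 fell the most (-5.00 and -5.42), and Foxp3 was lower too (-0.95 and -0.79). Some libraries stood apart. Xist, which is transcribed from the inactive X, was at 486 CPM (without TMM scaling) in nTreg KO replicate 3, 723 CPM in nTreg WT replicate 3 and 2035 CPM in iTreg WT replicate 2, and below 1 CPM in the other libraries. The Y-linked Ddx3y was read in both of these nTreg libraries (142 and 102 CPM) and was at 0 in iTreg WT replicate 2. The summed myeloid markers were at 40.9, 428 and 84.6 CPM in KO-labelled nTreg, 50.4, 199 and 82.8 CPM in WT-labelled nTreg, and at most 5.92 CPM in iTreg. The summed immediate early genes were at 7625 CPM in nTreg KO replicate 1 and 6713 CPM in nTreg WT replicate 1, and at 1669 to 3275 CPM in the other libraries. In bulk RNA of this kind, fewer cells of a type and less RNA per cell cannot be told apart.

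With the KO label, 1 of 10 members passed in iTreg, Atf5, and 6 of 10 passed in nTreg, Atf4, Ddit3, Atf5, Trib3, Nupr1 and Chac1. All of these were higher, and no member was lower in either kind. Over all genes tested, 0.166% passed as higher and 0.0166% as lower in iTreg (0.183% in all), and 2.18% passed as higher and 0.341% as lower in nTreg (2.53% in all). The median log2 fold change of the members was 1.12 in iTreg, where all genes had -0.01, and 2.05 in nTreg, where all genes had 0.01. All 3 KO-labelled libraries lay above all 3 WT-labelled ones for 6 of 10 members in iTreg and for 7 of 10 in nTreg. The same held for 4.68% of all genes in iTreg and for 15.7% in nTreg. The test was the quasi-likelihood F test of edgeR, adjusted by Benjamini-Hochberg over the 12038 genes, and a gene passed at an adjusted p under 0.05. With the replicate number as a block, 4 of 10 members passed in iTreg (Atf3, Atf5, Trib3 and Sesn2) and 7 of 10 in nTreg (the same 6 and Sesn2). The block also raised the calls over all 12038 genes, from 22 to 114 in iTreg and from 304 to 1083 in nTreg.

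**Figure D1:**
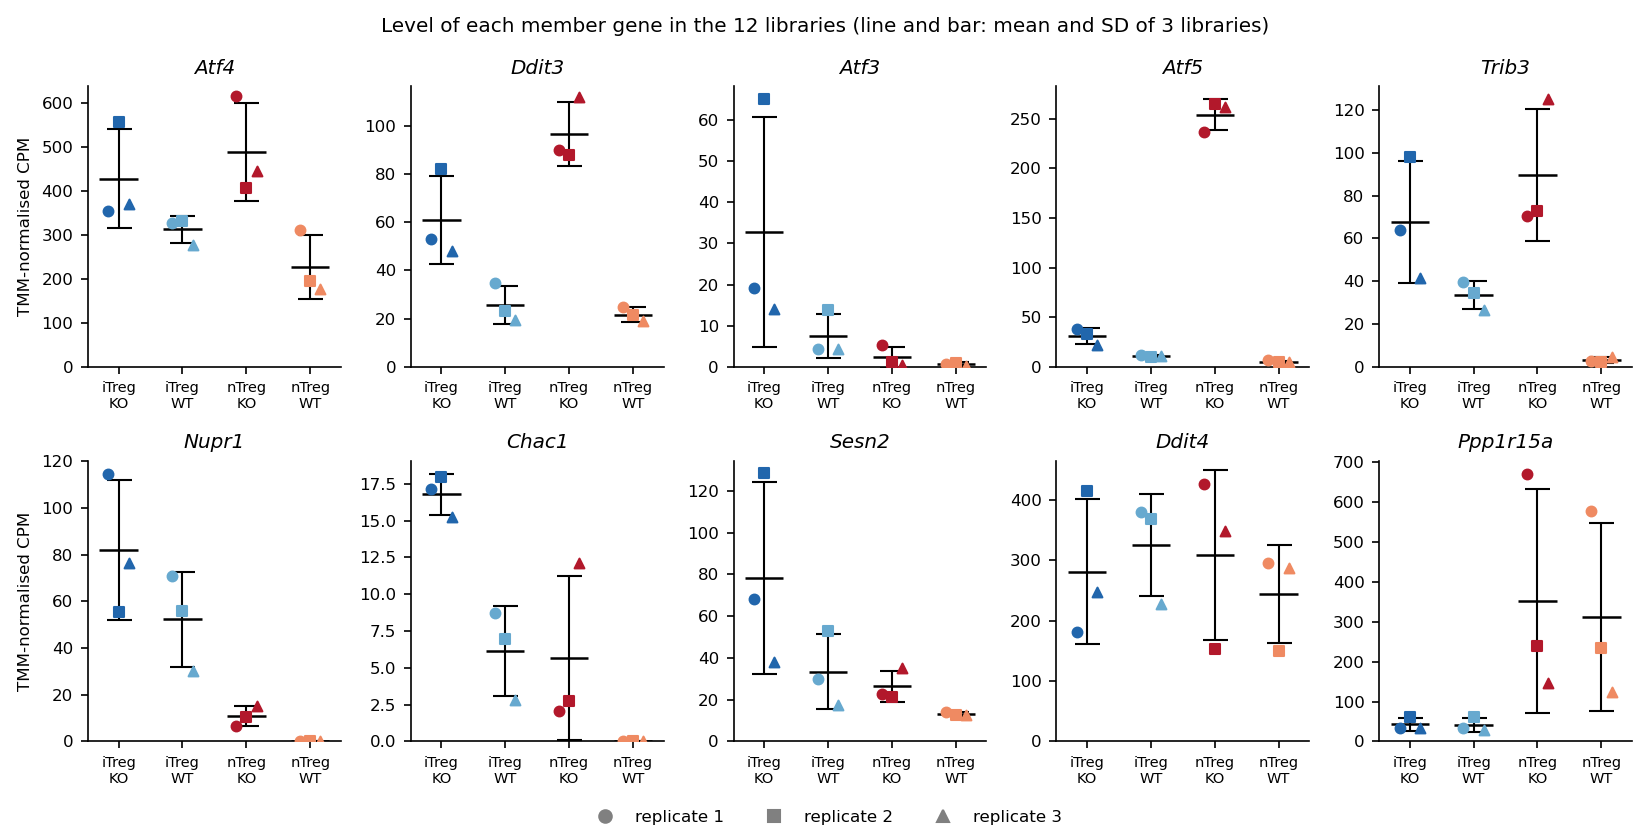
Level of each of the 10 members in TMM-scaled CPM (vertical axis, linear, from 0) in the 4 groups (horizontal axis). Points are libraries, with a marker for each replicate number, the line is the mean and the bar the SD of 3 libraries. Nupr1 and Chac1 are at 0 in WT-labelled nTreg, Atf5 is at 236 to 265 CPM in KO-labelled nTreg and at most 37.6 CPM elsewhere, and Ppp1r15a is highest in replicate 1 of both nTreg groups.

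Atf4, the factor at the head of the axis (chr15:80255184-80257541, mm10, plus strand), was at 354, 557 and 371 CPM in KO-labelled iTreg and at 327, 332 and 277 CPM in WT-labelled iTreg. In KO-labelled nTreg it was at 616, 407 and 444 CPM, against 310.2, 195 and 176 CPM in WT-labelled nTreg. The KO-labelled libraries lay above the WT-labelled ones in both kinds. The log2 fold change was 0.45 in iTreg (SE 0.24, adjusted p = 0.71) and 1.11 in nTreg (SE 0.24, adjusted p = 0.028), so only the rise in nTreg passed. The nTreg call was lost without nTreg WT replicate 2 (adjusted p = 0.15), nTreg WT replicate 3 (0.15), nTreg KO replicate 1 (0.13) or nTreg KO replicate 3 (0.061). It was also lost without the 3 libraries with Xist (0.36) and without both nTreg libraries numbered 2 (0.21), while the log2 fold change lay between 0.91 and 1.17 in these 6 fits.

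Ddit3, which encodes CHOP, a factor that ATF4 induces and that pairs with C/EBP proteins, lies at chr10:127290774-127296288 on the plus strand. It was at 53.02, 82.1 and 48.2 CPM in KO-labelled iTreg and at 34.7, 23.1 and 19.3 CPM in WT-labelled iTreg. KO-labelled nTreg had 89.9, 88.0 and 112 CPM, and WT-labelled nTreg had 24.8, 21.4 and 18.8 CPM. The labels did not overlap in either kind, and the WT-labelled libraries of both kinds lay in the same range. The log2 fold change in iTreg, 1.25 (SE 0.24), missed the threshold (adjusted p = 0.073). It missed it with the block too (0.057), and passed with DESeq2 (0.00031) and without iTreg KO replicate 3 (0.034). The rise in nTreg passed in every fit made, with a log2 fold change of 1.95 to 2.27. The exons of Ddit3 share 68 bases with Mars on the other strand, and whether counting used the strand is not given in the sources used here.

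Atf3, a factor that also answers to many other stresses, lies at chr1:191170296-191218039 on the minus strand. It had 19.2, 65.1 and 14.1 CPM in KO-labelled iTreg and 4.20, 13.8 and 4.43 CPM in WT-labelled iTreg. In nTreg it was low, with 5.21, 1.197 and 0.324 CPM under the KO label and 0.739, 0.991 and 0.0931 CPM under the WT label. Replicate 2 was the highest under both labels in iTreg, and the lowest KO-labelled iTreg library lay just above the highest WT-labelled one. The iTreg log2 fold change of 2.12 (SE 0.77) did not pass (adjusted p = 0.51), but it did with the replicate number as a block (2.06, SE 0.24, adjusted p = 0.0047). Without the block it was 1.15 without iTreg KO replicate 2 and 2.92 without iTreg WT replicate 2, and passed in neither. The nTreg value of 1.94 (SE 1.19, adjusted p = 0.52) rested on 67 reads in 3 KO-labelled libraries and 13 reads in 3 WT-labelled ones, and those libraries overlapped. It was 0.59 without nTreg KO replicate 1, 1.29 without nTreg WT replicate 3, 2.56 without nTreg WT replicate 2 and 2.91 without both libraries numbered 2.

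Atf5 (chr7:44812256-44816658, minus strand), a factor close to ATF4 whose mRNA is also held back by upstream reading frames, was higher with the KO label in both kinds. It was at 37.6, 33.1 and 21.8 CPM in KO-labelled iTreg and at 11.9, 9.87 and 11.2 CPM in WT-labelled iTreg. It was at 236, 265 and 261 CPM in KO-labelled nTreg and at 6.35, 4.53 and 4.56 CPM in WT-labelled nTreg. No libraries of any pair of groups overlapped, and the spread within KO-labelled nTreg was small (254 ± 15.6 CPM, SD, n = 3). Atf5 rose in iTreg by 1.48 on the log2 scale (SE 0.18, adjusted p = 0.0068), a call that was lost without iTreg WT replicate 1 or 2 (adjusted p = 0.058 and 0.057) and without the libraries with Xist (0.36). The nTreg rise, a fitted 49.8-fold change (adjusted p = 6.9e-08), passed in every fit made. Its exons share 82 bases with genes on the other strand, Nup62 and Il4i1.

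Trib3, a pseudokinase that CHOP and ATF4 induce and that dampens ATF4 and AKT signalling, lies at chr2:152337422-152344032 on the minus strand. It was at 63.9, 98.0 and 41.5 CPM in KO-labelled iTreg and at 39.7, 34.3 and 26.5 CPM in WT-labelled iTreg. It was at 70.7, 72.9 and 125 CPM in KO-labelled nTreg, against 2.81, 1.98 and 4.65 CPM in WT-labelled nTreg. WT-labelled nTreg was thus far below the other 3 groups, while KO-labelled nTreg and KO-labelled iTreg overlapped. The iTreg log2 fold change of 1.01 (SE 0.32) did not pass (adjusted p = 0.44; 0.031 with the block). The rise in nTreg was a fitted 27.2-fold change (adjusted p = 4.1e-05) and passed in every fit made.

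Nupr1 encodes a small stress-induced chromatin protein and lies at chr7:126623249-126630861 on the minus strand. It was at 114, 55.5 and 76.4 CPM in KO-labelled iTreg and at 70.8, 55.7 and 30.2 CPM in WT-labelled iTreg, and these groups overlapped (log2 fold change 0.65, SE 0.36, adjusted p = 0.76). KO-labelled nTreg had 6.49, 10.5 and 15.1 CPM (363 reads), and WT-labelled nTreg had 0 reads in all 3 libraries. With a floor of 3 counts over the WT-labelled group, Nupr1 was at least 88.1-fold higher in KO-labelled nTreg (adjusted p = 0.0012). That call was lost without the libraries with Xist (0.053), where the WT-labelled libraries were still without a read.

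Chac1, an ATF4 target whose product splits glutathione, lies at chr2:119351229-119354381 on the plus strand. It was at 17.1, 17.96 and 15.3 CPM in KO-labelled iTreg and at 8.70, 6.93 and 2.80 CPM in WT-labelled iTreg. KO-labelled nTreg had 2.09, 2.77 and 12.1 CPM (174 reads), and WT-labelled nTreg had 0 reads in all 3 libraries. The labels did not overlap in either kind, but nTreg KO replicate 3, a library with Xist reads, held 112 of the 174 reads. The iTreg log2 fold change of 1.44 (SE 0.59) did not pass (adjusted p = 0.63; 0.063 with the block). In KO-labelled nTreg Chac1 was at least 42.2-fold higher (adjusted p = 0.011) and at least 20.7-fold higher without nTreg KO replicate 3. The call was lost without nTreg WT replicate 3 (0.051) and without the libraries with Xist (0.056).

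Sesn2 and Ddit4 encode brakes on the growth kinase complex mTORC1, Sesn2 as a leucine sensor and Ddit4, also called REDD1, through the TSC complex. Sesn2 (chr4:132492032-132510501, minus strand) was at 68.3, 129 and 38.1 CPM in KO-labelled iTreg and at 30.0, 52.8 and 17.3 CPM in WT-labelled iTreg. It was at 22.9, 21.2 and 35.0 CPM in KO-labelled nTreg, against 14.2, 12.7 and 12.5 CPM in WT-labelled nTreg. The labels were apart in nTreg and overlapped in iTreg, where replicate 2 was the highest and replicate 3 the lowest under both labels. Sesn2 passed in neither kind without the block (log2 fold change 1.22, SE 0.42, adjusted p = 0.49 in iTreg; 1.004, SE 0.45, adjusted p = 0.37 in nTreg). It passed in both with the block (adjusted p = 0.0040 in iTreg and 0.0032 in nTreg).

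Ddit4 (chr10:59949669-59951834, minus strand) did not pass in either kind. It was at 181, 415 and 248 CPM in KO-labelled iTreg and at 379, 368 and 228 CPM in WT-labelled iTreg. It was at 426, 152 and 348 CPM in KO-labelled nTreg and at 295, 149.8 and 287 CPM in WT-labelled nTreg. The labels overlapped in both kinds, and the nTreg libraries numbered 2 were the lowest under both labels. The log2 fold change was -0.21 in iTreg (SE 0.39, adjusted p = 0.95) and 0.34 in nTreg (SE 0.40, adjusted p = 0.76). Glucocorticoids are known to induce Ddit4, and the genes of the glucocorticoid and FOXO list summed to 3536, 1599 and 2427 CPM in KO-labelled nTreg and to 2267, 1314 and 1942 CPM in WT-labelled nTreg. Like Ddit4, these nTreg sums were lowest in the libraries numbered 2. In iTreg the sums were lower, at 958, 784 and 865 CPM in KO-labelled and 913, 881 and 750.1 CPM in WT-labelled libraries. The KO-labelled iTreg library with the most Ddit4 had the lowest sum, and Ddit4 overlapped between the kinds where the sums did not. Their part in its level was not tested.

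Ppp1r15a, which encodes the phosphatase subunit GADD34, lies at chr7:45522916-45526268 on the minus strand and shares 12 exon bases with Tulp2. It was at 33.6, 61.1 and 32.9 CPM in KO-labelled iTreg and at 34.7, 60.2 and 27.8 CPM in WT-labelled iTreg. It was at 671, 238 and 146 CPM in KO-labelled nTreg and at 578, 234 and 124 CPM in WT-labelled nTreg. The labels overlapped in both kinds, and libraries of the same number were close to each other under both labels. The log2 fold change was 0.05 in iTreg (SE 0.61, adjusted p = 0.998) and 0.17 in nTreg (SE 0.59, adjusted p = 0.94), and the block narrowed the SE to 0.087 in iTreg and 0.080 in nTreg without a call. Within each nTreg group the libraries rank alike by Ppp1r15a and by the summed immediate early genes, at 7625, 2729 and 2118 CPM in KO-labelled and 6713, 3275 and 2524 CPM in WT-labelled libraries. The order was the same in WT-labelled iTreg, with sums of 2000, 2505 and 1669 CPM. In KO-labelled iTreg, with sums of 1908, 2221 and 1963 CPM, it was not the same. There replicates 1 and 3, which were close in Ppp1r15a (33.6 and 32.9 CPM), changed places. The part of these genes in the Ppp1r15a level was not tested.

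**Figure D2:**
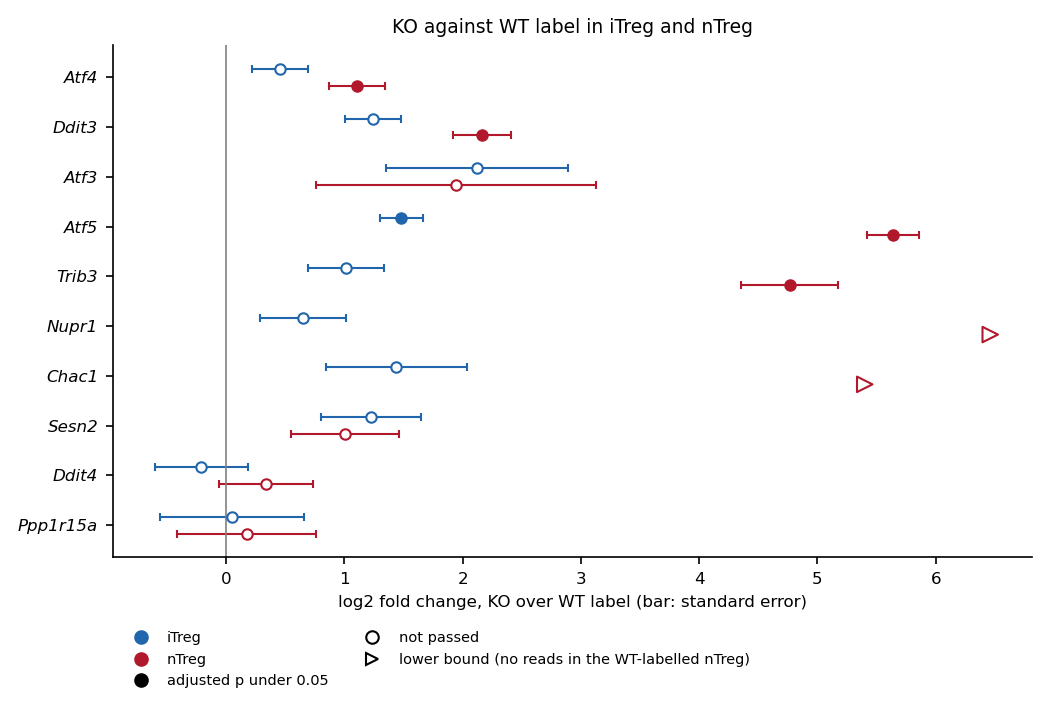
Log2 fold change of each member, KO over WT label (horizontal axis), in iTreg (upper of each pair) and nTreg (lower), with the standard error as a bar. Filled points passed at an adjusted p under 0.05, and triangles are lower bounds where WT-labelled nTreg had no read. Atf5 in iTreg and 6 members in nTreg passed, and Ddit4 and Ppp1r15a lie within 1 standard error of 0 in both kinds.

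The difference between the KO effects of the kinds was tested as an interaction, iTreg minus nTreg. Of the 10 members, 3 had a smaller log2 KO effect in iTreg than in nTreg and none a larger one. Of all genes, 0.274% had a smaller effect and 0.0166% a larger one (0.291% in all). These effects are ratios to WT-labelled levels that differed between the kinds. Mean Nupr1 was at 82.1 CPM (KO) and 52.2 CPM (WT) in iTreg, and at 10.7 and 0 CPM in nTreg. Mean Trib3 was at 33.5 CPM in WT-labelled iTreg and 3.15 CPM in WT-labelled nTreg. Only iTreg were cultured, so the difference cannot tell culture from Treg kind. Atf5 had a difference of -4.15 on the log2 scale (SE 0.28, adjusted p = 4.2e-05), which passed in every fit made. Trib3 had a difference of -3.75 (SE 0.51, adjusted p = 0.012). That call was lost without nTreg WT replicate 1 (0.052) or 3 (0.057), without the libraries with Xist (0.25) and without both nTreg libraries numbered 2 (0.12). For Nupr1 the fitted difference of -9.19 (adjusted p = 0.033) depends on the prior count because WT-labelled nTreg had no read. Its call was lost in 10 of the 12 fits that each left out a library, with an adjusted p of up to 0.13. It was also lost without the filter on low counts (0.12), without both nTreg libraries numbered 2 (0.23) and when the libraries with Xist were left out (0.55). The differences of Ddit3 (-0.92, SE 0.33, adjusted p = 0.50), Atf4 (-0.65, SE 0.33, adjusted p = 0.74) and Ddit4 (-0.55, SE 0.56, adjusted p = 0.96) did not pass. Atf3 (0.18, SE 1.68), Sesn2 (0.22, SE 0.62) and Ppp1r15a (-0.12, SE 0.85) had differences well within their errors. Chac1, with no read in WT-labelled nTreg, passed in the difference with the block alone among the edgeR fits (adjusted p = 0.031, against 0.24).

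The 2 kinds of Treg also differed under a given label. Of the 10 members, 4 were higher and 3 lower in KO-labelled iTreg than in KO-labelled nTreg, where 32.1% of all genes were higher and 29.8% lower (61.9% passed). In WT-labelled iTreg 6 members were higher and 1 was lower than in WT-labelled nTreg, where 34.8% of genes were higher and 30.4% lower (65.2% passed). These comparisons also set cells from 5 days of culture against cells sorted directly, and culture and Treg kind cannot be told apart.

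Atf5 changed places between the labels. With the KO label it was lower in iTreg (30.8 ± 8.14 CPM) than in nTreg (254 ± 15.6 CPM), by -3.05 on the log2 scale (SE 0.18, adjusted p = 1.3e-07). With the WT label it was higher in iTreg (10.97 ± 1.01 CPM) than in nTreg (5.15 ± 1.04 CPM), by 1.11 (SE 0.22, adjusted p = 0.00072; SD, n = 3 each). Ddit3 was lower in KO-labelled iTreg (61.1 ± 18.3 CPM) than in KO-labelled nTreg (96.6 ± 13.3 CPM), with a log2 fold change of -0.66 (SE 0.23, adjusted p = 0.025). That call was lost without nTreg KO replicate 3, iTreg KO replicate 1 or iTreg KO replicate 3 (0.088 to 0.093), and without the libraries with Xist (-0.54, adjusted p = 0.13). Under the WT label Ddit3 was at 25.7 ± 7.99 CPM in iTreg and 21.7 ± 3.02 CPM in nTreg (0.25, SE 0.24, adjusted p = 0.38).

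Trib3 was at 67.8 ± 28.5 CPM in KO-labelled iTreg and 89.6 ± 30.8 CPM in KO-labelled nTreg, which overlapped (log2 fold change -0.40, SE 0.31, adjusted p = 0.29). It was 10.2-fold higher in WT-labelled iTreg (33.5 ± 6.64 CPM) than in nTreg (3.15 ± 1.37 CPM with the WT label; adjusted p = 1.9e-05). Nupr1 was 7.65-fold higher in KO-labelled iTreg (82.1 ± 29.9 CPM) than in KO-labelled nTreg (10.7 ± 4.31 CPM; adjusted p = 0.00013). With the WT label it was at least 439-fold higher in iTreg, by the same floor of 3 counts over the group (2017 reads in iTreg, 0 in nTreg; adjusted p = 3.0e-06). Chac1 was at 16.8 ± 1.38 CPM in KO-labelled iTreg and 5.65 ± 5.59 CPM in KO-labelled nTreg (log2 fold change 1.58, SE 0.60, adjusted p = 0.042). That value was 2.76 without nTreg KO replicate 3, and the call was lost in 7 of the 12 fits that left out a library (nTreg KO replicate 1 or 2, iTreg WT replicate 1 or 2, or any iTreg KO replicate), with an adjusted p of up to 0.14. It was lost too without both nTreg libraries numbered 2 (0.14), without the filter on low counts (0.071) and under a block of numbers across kinds (0.054). With the WT label Chac1 was at least 52.0-fold higher in iTreg (239 reads in iTreg, 0 in nTreg; adjusted p = 0.00040).

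Atf3 was higher in iTreg under both labels, with 32.8 ± 28.1 CPM in KO-labelled iTreg and 2.25 ± 2.61 CPM in KO-labelled nTreg (log2 fold change 3.93, SE 0.87, adjusted p = 0.0019). The value was 5.28 without nTreg KO replicate 1 and 2.94 without iTreg KO replicate 2. With the WT label Atf3 was at 7.47 ± 5.47 CPM in iTreg and 0.607 ± 0.463 CPM in nTreg (3.75, SE 1.07, adjusted p = 0.0086). That value ranged from 2.95 without iTreg WT replicate 2 to 4.36 without nTreg WT replicate 2, was 3.10 without nTreg WT replicate 3, and did not pass without the libraries with Xist (2.30, adjusted p = 0.10). Sesn2 was higher in iTreg under the KO label (78.3 ± 46.1 CPM in iTreg, 26.4 ± 7.48 CPM in nTreg; by 1.57 on the log2 scale, SE 0.43, adjusted p = 0.0073), a call lost without iTreg KO replicate 2 (0.050). Under the WT label it was at 33.4 ± 17.97 CPM in iTreg and 13.1 ± 0.920 CPM in nTreg (1.35, SE 0.45, adjusted p = 0.019). That call was lost without nTreg WT replicate 2 (0.053), nTreg WT replicate 3 (0.059) or iTreg WT replicate 2 (0.12). It was lost as well without the filter on low counts (0.055), without both nTreg libraries numbered 2 (0.064) and when the libraries with Xist were left out (0.82, adjusted p = 0.22).

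Ppp1r15a was the member that was lower in iTreg under both labels. With the KO label it was at 42.5 ± 16.1 CPM in iTreg and 352 ± 280.4 CPM in nTreg (-3.05 on the log2 scale, SE 0.64, adjusted p = 0.0014). In WT-labelled cells it was at 40.9 ± 17.04 CPM in iTreg and 312 ± 237 CPM in nTreg (-2.93, SE 0.64, adjusted p = 0.0016). The values were -2.18 without nTreg KO replicate 1 and -2.12 without nTreg WT replicate 1, and both calls were kept. Atf4 (-0.19 with the KO label and 0.46 with the WT label) and Ddit4 (-0.13 and 0.41) passed under neither label, with adjusted p from 0.11 to 0.79. Without nTreg WT replicate 1, Atf4 was higher in WT-labelled iTreg (0.75, adjusted p = 0.013).

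**Figure D3:**
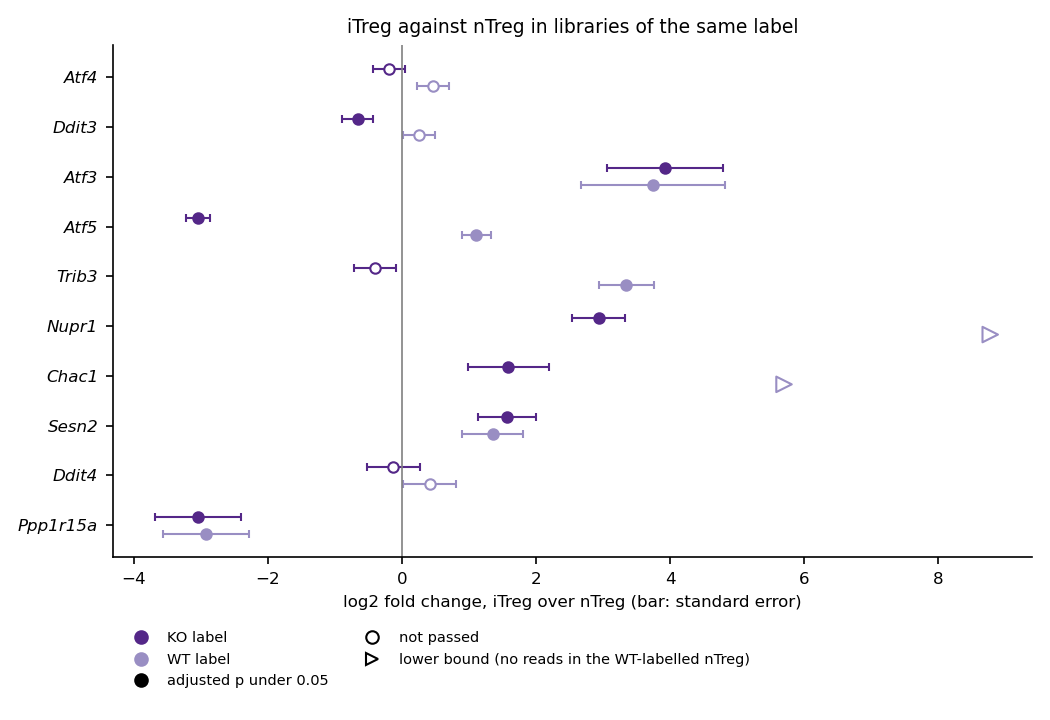
Log2 fold change of each member, iTreg over nTreg (horizontal axis), in KO-labelled (upper of each pair) and WT-labelled libraries (lower), with the standard error as a bar. Filled points passed at an adjusted p under 0.05, and triangles are lower bounds where WT-labelled nTreg had no read. Atf5 lies at -3.05 with the KO label and at 1.11 with the WT label, while Ppp1r15a lies near -3 with both.

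Set in order of group means, Atf4, Ddit3, Atf5 and Trib3 had KO-labelled nTreg at the top, then KO-labelled iTreg, WT-labelled iTreg and WT-labelled nTreg. Neighbours in that order were all apart for Atf5, whose libraries lay apart at each step, by 8.25-fold, 2.81-fold and 2.13-fold between the means. For Trib3 the top 2 groups overlapped, for Ddit3 the lowest 2 did, and for Atf4 the top 2 and the lowest 2 did. Atf3, Nupr1, Chac1 and Sesn2 had KO-labelled iTreg at the top, then WT-labelled iTreg, KO-labelled nTreg and WT-labelled nTreg. Of these, the KO-labelled and WT-labelled iTreg overlapped for Nupr1 and Sesn2, and WT-labelled iTreg and KO-labelled nTreg overlapped for Atf3, Chac1 and Sesn2. For Atf3 both nTreg groups overlapped as well. The means of Ddit4 all overlapped at each step, and those of Ppp1r15a were apart only between the nTreg and iTreg groups.

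Within groups, certain libraries were high or low for many members. The same counts were not made over all tested genes, so they do not set the members apart from other genes. In KO-labelled iTreg, replicate 2 had the highest value for 8 of 10 members and replicate 3 the lowest for 7. In WT-labelled iTreg, replicate 3 was the lowest for 8 of 10. In KO-labelled nTreg, replicate 3 was the highest for 5 members (Ddit3, Trib3, Nupr1, Chac1 and Sesn2) and replicate 1 for 4 (Atf4, Atf3, Ddit4 and Ppp1r15a). In WT-labelled nTreg, replicate 1 was the highest for 6 of the 8 members with reads.

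**Figure D4:**
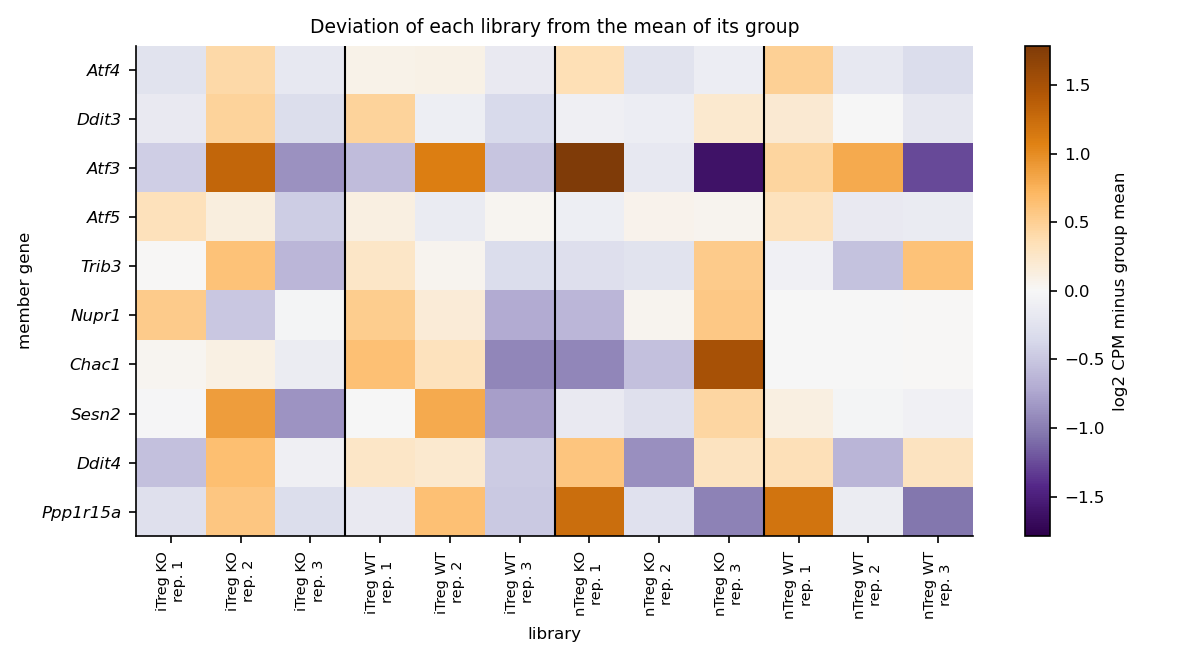
Log2 CPM of each member (rows) in each library (columns) minus the mean of its group, with orange above and purple below that mean. Replicate 2 of KO-labelled iTreg is above its group mean for most members, and Ppp1r15a runs alike in the KO-labelled and WT-labelled nTreg of the same number.

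For each member the nearest profiles among all tested genes were taken by the root mean square difference of centred log2 CPM over the 12 libraries, a description with no test. Herpud1, an ER membrane protein of the degradation machinery, was nearest to Ddit3 (0.30), followed by Sec24d (0.30), a coat protein of vesicles that leave the ER, and the chaperone gene Hspa5 (0.30). Herpud1 was at 177 ± 28.2 CPM in KO-labelled iTreg and 84.6 ± 7.12 CPM in WT-labelled iTreg, and at 410.3 ± 28.2 CPM in KO-labelled nTreg and 86.9 ± 7.64 CPM in WT-labelled nTreg. Derl3, which encodes a Derlin of the ER membrane, was nearest to Atf5 (0.45), then the secretory cell factor Bhlha15 (0.75) and Zfp9 (0.86). Slc1a4, a neutral amino acid transporter, Pycr1, an enzyme of proline synthesis, and Slc6a9, a glycine transporter, were nearest to Trib3 (0.62, 0.63 and 0.64). Asns, asparagine synthetase, was nearest to Chac1 (0.62), followed by Slc1a4 (0.79) and Pycr1 (0.99). Asns was at 146 ± 53.9 CPM in KO-labelled iTreg and 42.7 ± 20.2 CPM in WT-labelled iTreg, and at 56.7 ± 11.9 CPM in KO-labelled nTreg and 2.08 ± 0.586 CPM in WT-labelled nTreg.

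Vegfa, a growth factor for vessels, was nearest to Nupr1 (0.82), with Fbln2 and Kctd14 farther away (1.52 each). Tnfaip3, an inhibitor of NF-kappaB signalling, Rgs2 and Fam43a were nearest to Ppp1r15a (0.34, 0.40 and 0.47). Tnfaip3 was at 62.6 ± 9.57 CPM in KO-labelled iTreg, 94.8 ± 44.4 CPM in WT-labelled iTreg, 695 ± 736 CPM in KO-labelled nTreg and 578 ± 420.1 CPM in WT-labelled nTreg, with the widest spread among nTreg libraries as for Ppp1r15a. Rpl36al, Siah2 and Selk were nearest to Atf4 (0.22, 0.23 and 0.24), a member with a small spread of its own (0.51 around its mean). Lrrk2, Reep6 and Psph were nearest to Sesn2 (0.36, 0.46 and 0.47), AK010878, Hsph1 and Sertad1 to Ddit4 (0.33, 0.35 and 0.38), and Mpzl2, Etv4 and Maff to Atf3 (0.97, 0.97 and 0.98). Among the members themselves, the closest pairs were Atf4 with Ddit4 (0.53) and Atf4 with Ddit3 (0.56), and the farthest was Nupr1 with Ppp1r15a (4.68). Atf4 and Ddit4 each varied little around their own means (0.51 and 0.52), less than their distance to each other. Their closeness therefore does not show that they ran alike.

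The rest of the pathway was read from lists of known genes. Of 8 tested genes for the eIF2 kinases, the eIF2 subunits and the constitutive phosphatase subunit Ppp1r15b, 0 passed in iTreg (0 at an unadjusted p under 0.05 and 0 by DESeq2) and 2 rose in nTreg. These were Eif2ak3, which encodes PERK (0.82, SE 0.15, adjusted p = 0.0087), and the eIF2 beta subunit gene Eif2s2 (0.72, SE 0.14, adjusted p = 0.016). The other kinase genes did not pass in nTreg, with log2 fold changes of -0.01 for Eif2ak4 (GCN2), -0.07 for Eif2ak1 (HRI) and -0.31 for Eif2ak2 (PKR). Nor did Eif2s1, the subunit that is phosphorylated (0.14), Eif2s3x (0.14) or Ppp1r15b (0.17). Of 8 genes for the exchange factor eIF2B and for feedback proteins, 0 passed in iTreg (1 at an unadjusted p under 0.05, and 1 by DESeq2) and 1 rose in nTreg. That was Dnajc3, the PERK inhibitor p58IPK, at 0.63 in iTreg (SE 0.12, adjusted p = 0.058, and 0.020 with the block) and 0.87 in nTreg (SE 0.12, adjusted p = 0.00095). The other genes did not pass in nTreg, with 0.16 for Eif2b1, 0.02 for Eif2b2, 0.34 for Eif2b3, 0.01 for Eif2b4 and 0.14 for Eif2b5 among the eIF2B genes, and with -0.0017 for Impact and 0.02 for Gcn1l1, which act on GCN2.

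Among 13 tested bZIP partners of ATF4 and CHOP, 0 passed in iTreg (3 at an unadjusted p under 0.05, and 1 by DESeq2) and 2 rose in nTreg. These were Cebpg, a C/EBP that pairs with ATF4 (0.90, SE 0.15, adjusted p = 0.0047), and Nfe2l1 (0.78, adjusted p = 0.00069), which is named after its value was seen. Cebpb had 0.33 in iTreg and 1.55 in nTreg (SE 0.46, adjusted p = 0.13), with all KO-labelled nTreg libraries above the WT-labelled ones, and Jun had -0.48 in iTreg and -0.05 in nTreg. Cebpa had 0 reads in KO-labelled iTreg and 6 reads in WT-labelled iTreg, and -0.93 in nTreg (SE 0.45, adjusted p = 0.41). With the block, 4 partners were higher and 1 lower in nTreg, where 1083 of all 12038 genes passed. These partners included Cebpb (1.61, adjusted p = 0.00047) and Cebpa (-0.93, adjusted p = 0.041). Among 9 tested paralogs of the members, 0 passed in iTreg (1 at an unadjusted p under 0.05, and 0 by DESeq2) and 1 in nTreg, Jdp2, a repressor close to ATF3 (1.35, adjusted p = 0.0083), also named after its value was seen. The paralogs of Trib3 and Sesn2 did not pass in nTreg, with 0.41 for Trib1, -0.28 for Trib2, -0.73 for Sesn1 and -0.48 for Sesn3. With the block, Sesn1 (adjusted p = 0.00056) and Sesn3 (0.0065) passed as lower, while Jdp2 stayed higher.

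Of 19 tested ATF4 targets of amino acid synthesis, one-carbon metabolism and transport, 1 rose in iTreg and 14 in nTreg, with none lower and medians of 0.70 in iTreg and 1.16 in nTreg. In iTreg the call was Slc7a3, a transporter of basic amino acids (2.60, adjusted p = 0.025; named after its value was seen). With the block 7 passed in iTreg, where 114 of all 12038 genes did. Asns and Psat1 were among these 7 (adjusted p = 0.00076 and 0.042). Of the first genes on the list, Asns had 1.76 in iTreg (SE 0.36, adjusted p = 0.097) and 4.74 in nTreg (SE 0.49, adjusted p = 0.00017). Psat1, of serine synthesis, had 0.56 in iTreg (adjusted p = 0.35) and 0.93 in nTreg (SE 0.16, adjusted p = 0.0074). Phgdh, the entry enzyme of that route, had 0.20 in iTreg (adjusted p = 0.80) and 1.12 in nTreg (SE 0.15, adjusted p = 0.00083). Psph, its last enzyme, passed in neither kind (0.85 in iTreg, adjusted p = 0.21; 0.40 in nTreg, adjusted p = 0.44).

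Of 12 other ATF4 targets tested, 1 rose in iTreg, Herpud1 (1.06, adjusted p = 0.0064), and 6 in nTreg, with medians of 0.20 in iTreg and 1.28 in nTreg. The 6 include Cebpg and Jdp2, which were already counted above among the bZIP partners and the paralogs. Vegfa had -0.07 in iTreg (SE 0.42, adjusted p = 0.99) and 6.06 in nTreg (SE 0.75, adjusted p = 0.00065), and Eif4ebp1, a brake on cap-dependent translation, had 0.69 in iTreg (adjusted p = 0.76) and 1.86 in nTreg (adjusted p = 0.061, and 0.00036 with the block). Vldlr had 2 reads in KO-labelled nTreg and 0 in WT-labelled nTreg. Of 11 tested CHOP targets and cell death genes, 0 passed in iTreg (0 at an unadjusted p under 0.05 and 0 by DESeq2) and 1 in nTreg, the BH3-only gene Bbc3, also called PUMA (-0.07 in iTreg, adjusted p = 0.96; 1.06 in nTreg, SE 0.16, adjusted p = 0.0032). Bcl2l11, or BIM, had -0.78 in iTreg and 0.13 in nTreg, Pmaip1, or NOXA, had -0.33 in iTreg and 0.03 in nTreg, and the oxidase gene Ero1l had -0.26 in iTreg and 0.15 in nTreg, none of which passed (adjusted p from 0.71 to 0.98). The list median was -0.22 in iTreg and 0.11 in nTreg.

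Of 17 tested targets of XBP1 and ATF6, the factors of the other arms of the ER stress response, 9 rose in iTreg and 16 in nTreg, with medians of 0.86 in iTreg and 1.77 in nTreg. Hspa5, the chaperone BiP, had 1.59 in iTreg (SE 0.19, adjusted p = 0.0060) and 1.98 in nTreg (SE 0.19, adjusted p = 9.5e-05), and Hsp90b1 had 1.10 in iTreg (SE 0.19, adjusted p = 0.043) and 1.89 in nTreg (SE 0.19, adjusted p = 0.00015). Xbp1 itself had 0.47 in iTreg (SE 0.13, adjusted p = 0.35, and 0.031 with the block) and 2.02 in nTreg (SE 0.14, adjusted p = 1.1e-05), and Dnajb9 had 0.33 in iTreg (adjusted p = 0.85) and 1.19 in nTreg (SE 0.27, adjusted p = 0.040).

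Lists of other known inputs to single members were read the same way. Of 9 targets of p53, which is known to induce Sesn2, 0 passed in iTreg (0 at an unadjusted p under 0.05 and 0 by DESeq2) and 0 in nTreg (4 at an unadjusted p under 0.05 and 1 by DESeq2). Cdkn1a, the cell cycle inhibitor p21, had 0.08 in iTreg and 1.80 in nTreg (SE 0.79, adjusted p = 0.35), Mdm2 had -0.07 in iTreg and -0.18 in nTreg, and the cyclin gene Ccng1 had -0.06 in iTreg and 0.09 in nTreg. With the block, 4 of the 9 passed in nTreg, where 1083 of all 12038 genes did. Cdkn1a was higher (1.77, adjusted p = 0.0031), and Sesn1, Btg2 (-0.50, adjusted p = 0.0026) and Trp53inp1 (-0.31, adjusted p = 0.018) were lower, the last 2 named after their values were seen. Of 12 immediate early genes, 0 passed in either kind, at an unadjusted p under 0.05 or by DESeq2. With the block, 1 passed in nTreg as lower, Btg2, which is on this list too. Fos had -0.27 in iTreg (SE 1.10) and 0.55 in nTreg (SE 0.96), and Fosb had -1.15 in iTreg (SE 1.26) and 1.21 in nTreg (SE 1.07). Egr1 had 0.35 in iTreg (SE 0.17) and -0.18 in nTreg (SE 0.18), and Egr2 had 0.24 in iTreg (SE 0.19) and -0.18 in nTreg (SE 0.19). Of 7 glucocorticoid and FOXO targets, 0 passed in iTreg (0 unadjusted, 0 by DESeq2) and 0 in nTreg (1 unadjusted, 0 by DESeq2). Tsc22d3, or GILZ, had -0.26 in iTreg and 0.41 in nTreg, and Fkbp5 had 0.27 in iTreg and 0.22 in nTreg. In nTreg, Per1 had 0.20, Txnip 0.62, Klf9 0.63, Sgk1 0.76 and Il7r -0.31, and in iTreg these 5 lay between -0.10 and 0.55. With the block, Klf9 (0.63, adjusted p = 0.049) and Sgk1 (0.70, adjusted p = 0.036) passed as higher in nTreg. Of 12 genes for the partners of Sesn2 and the mTORC1 complex, 0 passed in iTreg (1 unadjusted, 0 by DESeq2) and 0 in nTreg (0 unadjusted, 0 by DESeq2). Nprl2, Nprl3, Depdc5 and Wdr24, subunits of the GATOR complexes, had nTreg values from -0.05 to 0.08.

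**Figure D5:**
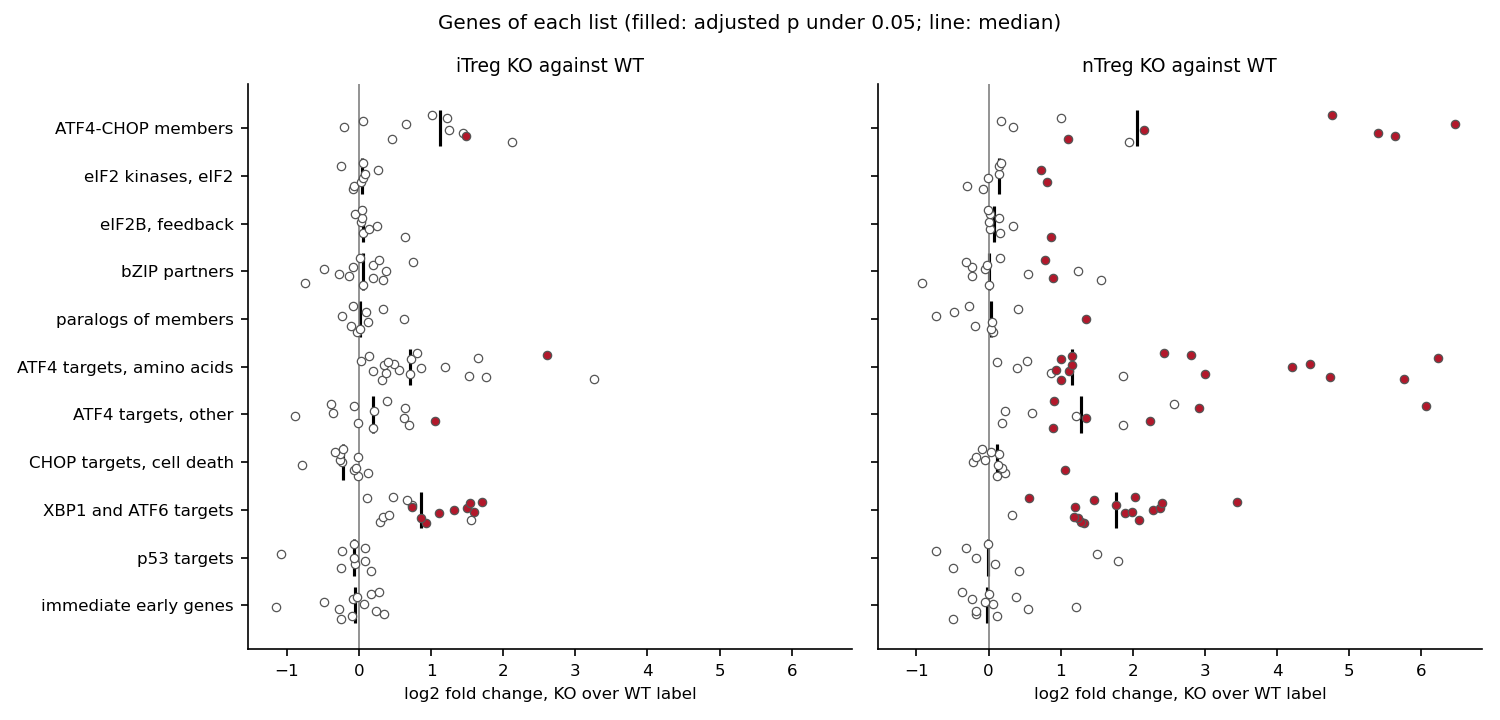
Log2 fold change, KO over WT label (horizontal axis), of the tested genes of each list (vertical axis) in iTreg (left) and nTreg (right). Each point is a gene, filled where its adjusted p was under 0.05, the black line is the median of the list, and a gene without a read in a group stands at its bound. The filled points in nTreg lie mostly among the members, the ATF4 targets and the XBP1 and ATF6 targets, 14 of 19 for amino acid genes and 16 of 17 for the last list, while p53 targets and immediate early genes have none in this fit without the block.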

How the data were processed

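RNA-seq counts were taken from 12 deposited files, 1 per library, each with whole-number read counts for 23337 gene symbols. The submitters' processing notes name cutadapt 1.13, STAR, HTSeq 0.6.1p1, DESeq2 and the build mm10, with no role or order, so per the labels the deposited counts are gene-level and not normalised, and whether counting used the strand is not given in the sources used here. Groups came from the sample titles, and each group had 3 libraries.

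All counts were fitted in edgeR 4.0.16 (R 4.3.3, limma 3.58.1) with 1 term per group for the 12 libraries, TMM scaling and filterByExpr (minimum count 10, minimum total 15), which left 12038 genes and 8 residual degrees of freedom. The quasi-likelihood test was used, with Benjamini-Hochberg adjustment over all genes tested and a threshold of 0.05. Standard errors are the log2 fold change over the root of F. CPM values are counts per gene scaled to the TMM-adjusted library total. A fold against a group with no read uses a floor of 3 counts over that group, which covers counting error only. Fits were tested on simulated counts with known changes. DESeq2 1.42.0 and the other alternatives are given in the closing section. The figures were drawn with matplotlib 3.10.9 under Python 3.11.15.

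To check for pairs, each library's log2 deviation from its group mean was correlated across genes between libraries. For equal numbers the correlation between KO-labelled and WT-labelled libraries was 0.31 to 0.63 in iTreg and 0.44 to 0.57 in nTreg. For unequal numbers it was -0.52 to 0.13 in iTreg and -0.42 to -0.054 in nTreg. Equal numbers were therefore taken as pairs in the block fit alone, a hint from the data and not from the labels. The main fit, its standard errors and its calls have no term for pairs. In iTreg the libraries numbered 2 differed in Xist (0 CPM with the KO label, 2035 CPM with the WT label) and Ddx3y (77.4 and 0 CPM). The block within each kind leaves 4 residual degrees of freedom. No 2 libraries of a group agreed within sampling noise.

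The members, the gene lists, the alternatives and the libraries left out were chosen with earlier results of these data known. Named genes are the members, Syvn1, the first 4 tested genes of each pathway list (all where 8 or fewer were tested) and the 3 nearest profiles of each member, with exceptions marked in the text. Marker lists of cell types are given as summed levels. Gene positions are from GENCODE M21 on mm10, and start sites and sequences are from RefSeq on GRCm38.p6. All 10 members matched by symbol, with 11 windows because Atf5 has 2 start sites.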

Additional observations from a re-analysis of the deposited data

Results flagged for a closer look

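For 3 members the log2 effect of the KO label differed between the kinds of Treg by the interaction term of edgeR's quasi-likelihood fit. Only the call of Atf5 held in every fit made. Leaving out 1 library lost the call of Trib3 in 2 of 12 fits and that of Nupr1 in 10. Without the libraries with Xist the edgeR adjusted p was 0.25 for Trib3 and 0.55 for Nupr1. The difference of Atf5, iTreg minus nTreg on the log2 scale, was -4.15 (SE 0.28, adjusted p = 4.2e-05), and the KO effects themselves were 1.48 in iTreg and 5.64 in nTreg, higher in 3 of 3 KO-labelled libraries in each. The difference of Trib3 was -3.75 (SE 0.51, adjusted p = 0.012), with KO effects of 1.01 in iTreg and 4.76 in nTreg. The difference of Nupr1 was -9.19 (SE 1.44, adjusted p = 0.033). This value depends on the prior count, since WT-labelled nTreg had no Nupr1 read.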

How the results depend on the processing

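The 6 alternatives and the 12 fits that each left out a library changed counts more than directions. With DESeq2, 99 genes passed in iTreg (22 in the main result), 496 in nTreg (304) and 140 in the difference (35), and 2 members in iTreg (1). Under the block the genes were 114 in iTreg, 1083 in nTreg and 217 in the difference, and 4 members passed in iTreg. Without the 3 libraries with Xist, 0 genes and 0 members passed in iTreg, 73 genes and 3 members in nTreg, and 1 gene and 1 member in the difference. In that edgeR fit of 9 libraries, 460 genes and 6 members had an unadjusted p under 0.05 in iTreg. Without both nTreg libraries numbered 2, 7 genes passed in iTreg, 106 in nTreg, and 1 gene and 1 member in the difference. Leaving out 1 library gave 0 (without iTreg WT replicate 1, with 756 genes unadjusted) to 64 genes and 0 to 2 members in iTreg, 168 to 443 genes and 4 to 6 members in nTreg, and 1 to 58 genes and 1 to 3 members in the difference. Between the kinds it gave 5 to 7 members with the KO label and 6 to 8 with the WT label. Signs turned for uncalled values alone. Left-out libraries gave -0.60 to 0.028 for Ddit4 and -0.30 to 0.44 for Ppp1r15a in iTreg, and -0.70 to 0.98 for Ppp1r15a in nTreg. They gave -0.79 to 1.53 for Atf3, -0.34 to 0.71 for Sesn2 and -0.93 to 0.75 for Ppp1r15a in the difference. Between the kinds they gave -0.43 to 0.0068 for Atf4 and -0.52 to 0.17 for Ddit4 with the KO label, and -0.024 to 0.42 for Ddit3 with the WT label. In the difference, Ppp1r15a was 0.28 without the libraries with Xist and Atf3 -0.79 without the nTreg libraries numbered 2. For equal numbers the correlation between iTreg and nTreg libraries was -0.05 to 0.10, so the numbers do not pair the kinds, and with the replicate block across kinds 6 members passed with the KO label and 7 with the WT label. The causes were not tested.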
